A study of Mus musculus with 2 samples.

Results

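The genes described here are 46 genes of the sarcomere and of the muscle fiber, listed by name and sorted by the kind of muscle they mark. They were matched by symbol, and all 46 were found, each with 1 gene ID, among the 55536 genes of the deposited gene table. By fiber type, 14 are genes of fast fibers, 15 of slow fibers or of the heart, and 5 of developing muscle. The other 12 form a group called shared here, which was not split by fiber type. Total RNA was sequenced from adrenal glands of B6CASTF1/J female mice aged 10 days, the first-generation cross of the strains C57BL/6J and CAST/EiJ. Per the labels, each library started from 300 ng of RNA, ribosomal RNA was reduced, a directional kit was used and ERCC spike-in RNA was added. There is 1 group with 2 libraries, replicate 1 and replicate 2, and no treatment or other tissue, so the values describe levels and the difference between these libraries. The tissue labels name female 03 for replicate 1 and female 04 for replicate 2, but both library descriptions name female 03 and the same cDNA, under 1 donor entry. Whether n = 2 stands for separate animals is not settled by the labels, so SDs or p-values over them would describe these 2 libraries, whose spread may be technical.

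The sarcomere is the repeating unit of striated muscle. Its thin filament is built of actin, with tropomyosin and the troponin complex set along it, and its thick filament is built of myosin, whose heavy chain is the motor. Calcium released from the sarcoplasmic reticulum binds troponin C, tropomyosin shifts, and myosin can pull on actin. Most of these proteins exist as copies made from separate genes, and fibers are named by the copies they use. Slow fibers hold Myh7 with slow light chains and slow troponins. Fast fibers hold Myh2 (type IIA), Myh1 (type IIX) or Myh4 (type IIB) with fast light chains and fast troponins. Embryonic and perinatal heavy chains come before the adult ones in developing muscle. The adrenal gland itself consists of a cortex that makes steroids and a medulla that makes catecholamines, and striated fibers are not among its own cell types.

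Markers of the gland were present in both libraries. All 8 steroid cortex genes and all 8 chromaffin genes of the marker lists reached at least 1 TPM (transcript abundance scaled for length and depth) in replicates 1 and 2, and none differed between the libraries by the rule given below. The libraries did stand apart in RNA of other organs. The 8 liver genes summed to 5899 TPM in replicate 1 and 1135 TPM in replicate 2. The 10 kidney genes summed to 0.980 TPM in replicate 1 and 230.6 TPM in replicate 2. All genes of both lists were called, where 4.05% of all tested genes were called higher in replicate 1 and 2.75% higher in replicate 2. The lists were chosen with earlier results of these data known, so the counts of calls are descriptive. By the size of these gaps the libraries differed by more than sampling noise. The total expected count over genes was 35287805 in replicate 1 and 33068267 in replicate 2, and a count of 0 allows up to 3 counts per library. In whole tissue, fewer cells of a type and less RNA per cell cannot be told apart.

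Heavy chain genes that lie side by side differed in opposite directions between the libraries, so their sequences come first, to show how far reads can tell them apart. On chromosome 11 of mm10, on the plus strand, the order is Myh3 (chr11:67078300-67102291), Myh2 (chr11:67171027-67197517), Myh1 (chr11:67200052-67224575), Myh4 (chr11:67238029-67260446) and Myh8 (chr11:67277124-67308634). The coding sequences of Myh4 and Myh1 were 90.2% identical, and 11% of the 50-base windows of Myh1 occurred unchanged in Myh4. Myh2 and Myh1 were 91.0% identical, with 20.5% of windows of Myh2 found in Myh1. The 60-base coding stretch below is the one in which Myh4 differed most from the other 3. Capitals in Myh1, Myh2 and Myh8 mark bases that differ from Myh4, and capitals in Myh4 mark bases at which any of the others differs.
Myh4, exon 33, chr11:67256433-67256492: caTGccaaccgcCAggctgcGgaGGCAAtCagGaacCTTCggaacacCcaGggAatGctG
Myh1, exon 34, chr11:67220648-67220707: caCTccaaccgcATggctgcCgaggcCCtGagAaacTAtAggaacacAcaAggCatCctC
Myh2, exon 33, chr11:67193464-67193523: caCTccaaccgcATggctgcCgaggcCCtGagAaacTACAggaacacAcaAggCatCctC
Myh8, exon 34, chr11:67303864-67303923: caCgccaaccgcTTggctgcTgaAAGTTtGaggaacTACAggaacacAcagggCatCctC
Myh1 differed from Myh4 at 17 of these 60 bases, and Myh2 and Myh8 each at 18. Another 60-base coding stretch, in exon 13 of Myh4 (chr11:67245718-67245777), was identical in all 4 genes, and a read that lies wholly within it cannot be placed by sequence.
Myh4, Myh1, Myh2 and Myh8: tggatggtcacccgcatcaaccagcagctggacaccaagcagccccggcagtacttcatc
The division of reads among these genes therefore rests on the stretches in which they differ. Below, both deposited quantifications are given for the level of Myh4 and for the heavy chain shares of Myh1, Myh2, Myh4 and Myh8.

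Upstream sequences are shown for 3 genes that the results turn on: Myh4, which was higher in replicate 2, and Myh7 and Acta1, which were higher in replicate 1. They are the 150 bases before the gene start in RefSeq (build GRCm38.p6), written 5′ to 3′ on the strand of the gene. Capitals mark the E-box (CANNTG), the MCAT motif (CATTCC), the MEF2 motif and the CArG box, searched on both strands, and the TATA motif (TATAAA), searched on the gene's strand.
Myh4, plus strand, chr11:67237662-67237811: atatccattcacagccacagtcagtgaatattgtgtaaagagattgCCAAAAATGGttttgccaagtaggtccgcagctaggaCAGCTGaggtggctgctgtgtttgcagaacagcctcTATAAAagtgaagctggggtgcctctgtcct
Myh7, minus strand, chr14:54994627-54994776: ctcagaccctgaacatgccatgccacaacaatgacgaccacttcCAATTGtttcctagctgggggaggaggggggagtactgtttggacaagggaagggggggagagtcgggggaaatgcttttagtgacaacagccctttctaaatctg
Acta1, minus strand, chr8:123894776-123894925: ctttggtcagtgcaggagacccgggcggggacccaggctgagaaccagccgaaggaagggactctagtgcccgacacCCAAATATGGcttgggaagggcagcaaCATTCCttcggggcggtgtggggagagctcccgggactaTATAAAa
The Myh4 window held a CArG box at -104 to -95, an E-box at -67 to -62 and a TATA motif at -31 to -26, counted back from the RefSeq start. The Myh7 window held an E-box at -106 to -101, and the Acta1 window a CArG box at -73 to -64, an MCAT motif at -46 to -41 and a TATA motif at -7 to -2. The RefSeq start differed from that of the M21 annotation by 217 bases for Myh4, 24 for Acta1 and 0 for Myh7. Of the genes listed, 39 had entries in this table, with 47 windows of 250 bases. A CArG box was present in 10.6% of these windows, against 1.47% of all 32851 windows, a MEF2 motif in 14.9% against 2.92%, an MCAT motif in 25.5% against 12.6%, an E-box in 87.2% against 66.2% and a TATA motif in 10.6% against 7.59%. None of the motifs overlapped in the 3 windows shown. Actn3, Myod1, Myoz1, Neb, Sln, Tnni2 and Tnnt3 had no entry. These matches describe letters only.

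Sarcomere RNA was present in both libraries and was higher in replicate 1. The 46 genes summed to 6019 TPM in replicate 1 and 2004 TPM in replicate 2, a ratio of 3.00. That was 1.77% of the TPM of nuclear protein-coding genes in replicate 1 and 0.613% in replicate 2. In replicate 1, 43 of the 46 genes reached 1 TPM, and in replicate 2, 35 did. The 35 were detected in both, while 58.1% of the 22015 nuclear protein-coding genes were detected in both. In replicate 1, 36 of the genes reached 10 TPM and 4 stood among the 100 highest nuclear protein-coding genes. In replicate 2 the counts were 23 and 0. The 4 were Acta1, Mylpf, Myl1 and Tnnt3.

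Each gene's expected counts in the 2 libraries were compared by a two-sided binomial test, exact and after TMM scaling, over the 18883 genes whose counts summed to 20 or more. A gene was called at a Benjamini-Hochberg adjusted p below 0.05 and a fold difference of at least 2. All log2 ratios and folds are replicate 1 over replicate 2 unless stated otherwise, and their 95% intervals cover counting error only. The test compares these 2 libraries and has no replicate check. Of the 46 genes, 45 had enough counts, and 36 were called higher in replicate 1, where 4.05% of all tested genes were. Myh4 and Actc1 were called higher in replicate 2, where 2.75% of all tested genes were. The other 7 were not called: Pygm, Tnnt2, Tpm3, Actn3, Tnni3, Mybpc2 and Pvalb. The median log2 ratio was 1.74 over the 45 genes, and 0.0028 over all tested genes, of which the middle 90% lay between -0.65 and 0.97. Myl7 had 2 counts in replicate 1 and 1 count in replicate 2 and was not tested.

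The counts of calls were similar under another quantification and another limit. In the other deposited quantification 36 of the listed genes were called higher in replicate 1, against 3.72% of the 20422 genes tested there, and 2 higher in replicate 2, against 2.49%. With a limit of 1.5-fold in place of 2-fold, 37 were called higher in replicate 1, against 5.69% of all tested genes, and 3 higher in replicate 2, against 3.99%. Pygm was the gene added toward replicate 1, and Pvalb, the calcium buffer of fast fibers, the gene added toward replicate 2.

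**Figure D1:**
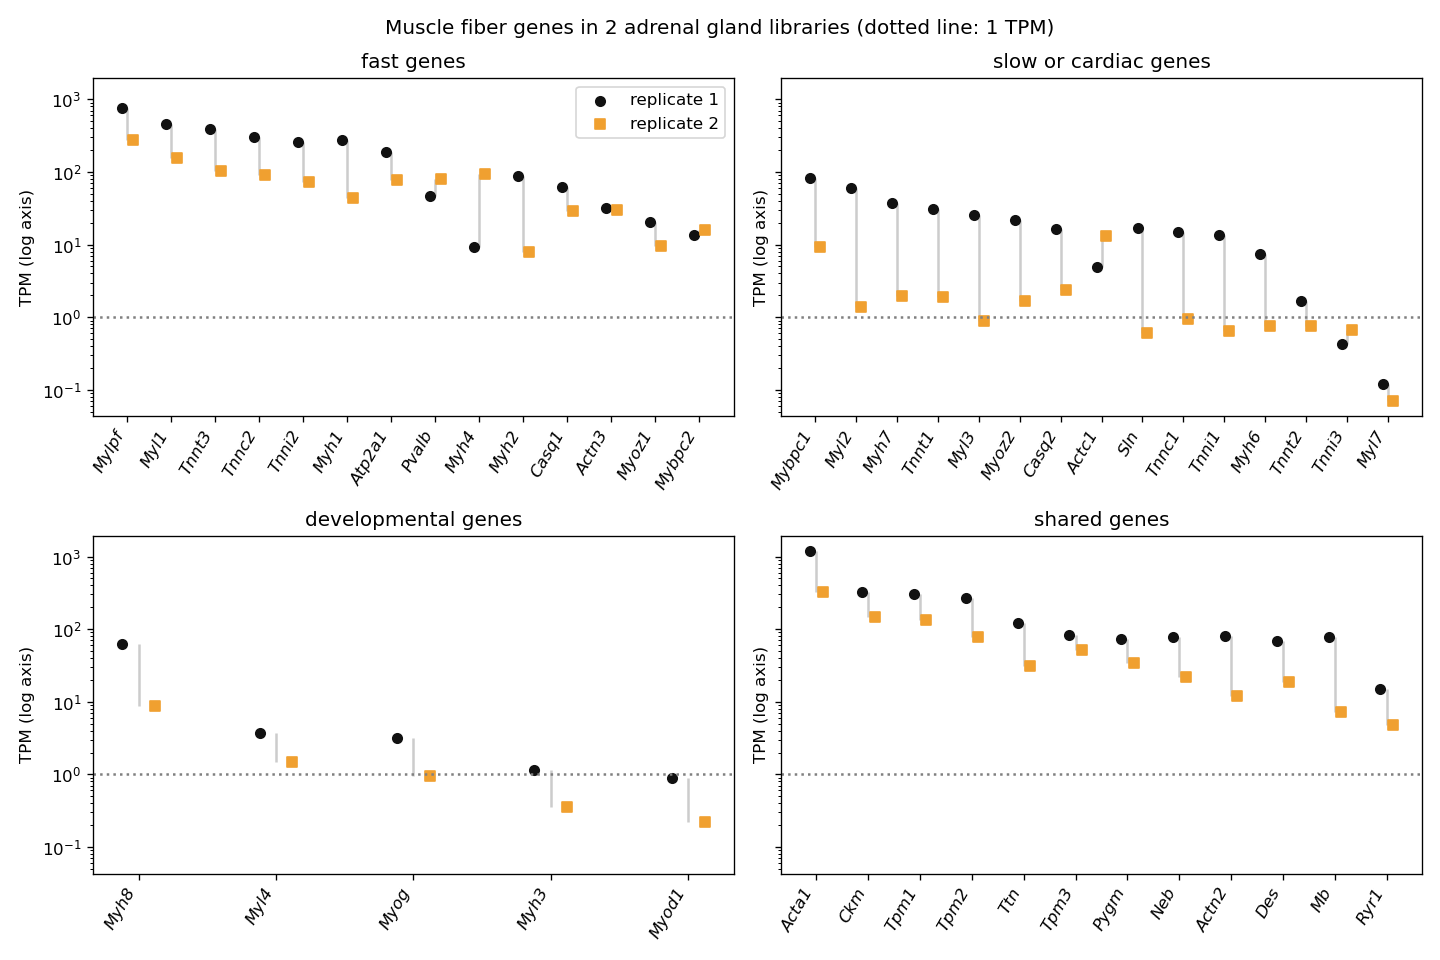
Level of each of the 46 genes in replicate 1 (black circles) and replicate 2 (orange squares), in TPM on a log axis, in 4 panels by fiber type, with a dotted line at 1 TPM. Genes run from the highest to the lowest mean, and lines join the values of a gene. The slow or cardiac panel shows the widest gaps, with 13 genes at 1 TPM or more in replicate 1 and 7 in replicate 2. Myh4, Actc1, Pvalb, Mybpc2 and Tnni3 lie lower in replicate 1.

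The groups differed in how far the libraries lay apart. The slow or cardiac genes had the widest gap, with a summed level of 336.3 TPM in replicate 1 and 36.8 TPM in replicate 2. The fast genes summed to 2923 TPM in replicate 1 and 1085 TPM in replicate 2, a ratio of 2.69 against 9.14 for the slow or cardiac genes. The median log2 ratio was 1.35 over the 14 fast genes, 3.87 over the 14 tested slow or cardiac genes, 1.65 over the 5 developmental genes and 1.68 over the 12 shared genes. Calls toward replicate 1 numbered 10, 11, 5 and 10 in these groups, in the same order, and calls toward replicate 2 numbered 1, 1, 0 and 0. Over all tested genes, 4.05% were called toward replicate 1 and 2.75% toward replicate 2. A fold of at least 8 toward replicate 1 was found for 12 genes, of which 10 were slow or cardiac genes, 1 a fast gene (Myh2) and 1 a shared gene (Mb). The 4.05% is for the 2-fold limit. The share of all tested genes with a fold of at least 8 was not computed, so the 12 genes are compared only among these groups. No test was made between the groups of genes, since genes are not replicates.

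The liver list moved the same way as most of these genes, with all 8 genes called higher in replicate 1 and a median log2 ratio of 2.33. The kidney list moved the way of Myh4, with all 10 genes called higher in replicate 2. The shares over all tested genes were 4.05% toward replicate 1 and 2.75% toward replicate 2. The part of these 2 lists in the differences of the muscle genes was not tested.

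**Figure D2:**
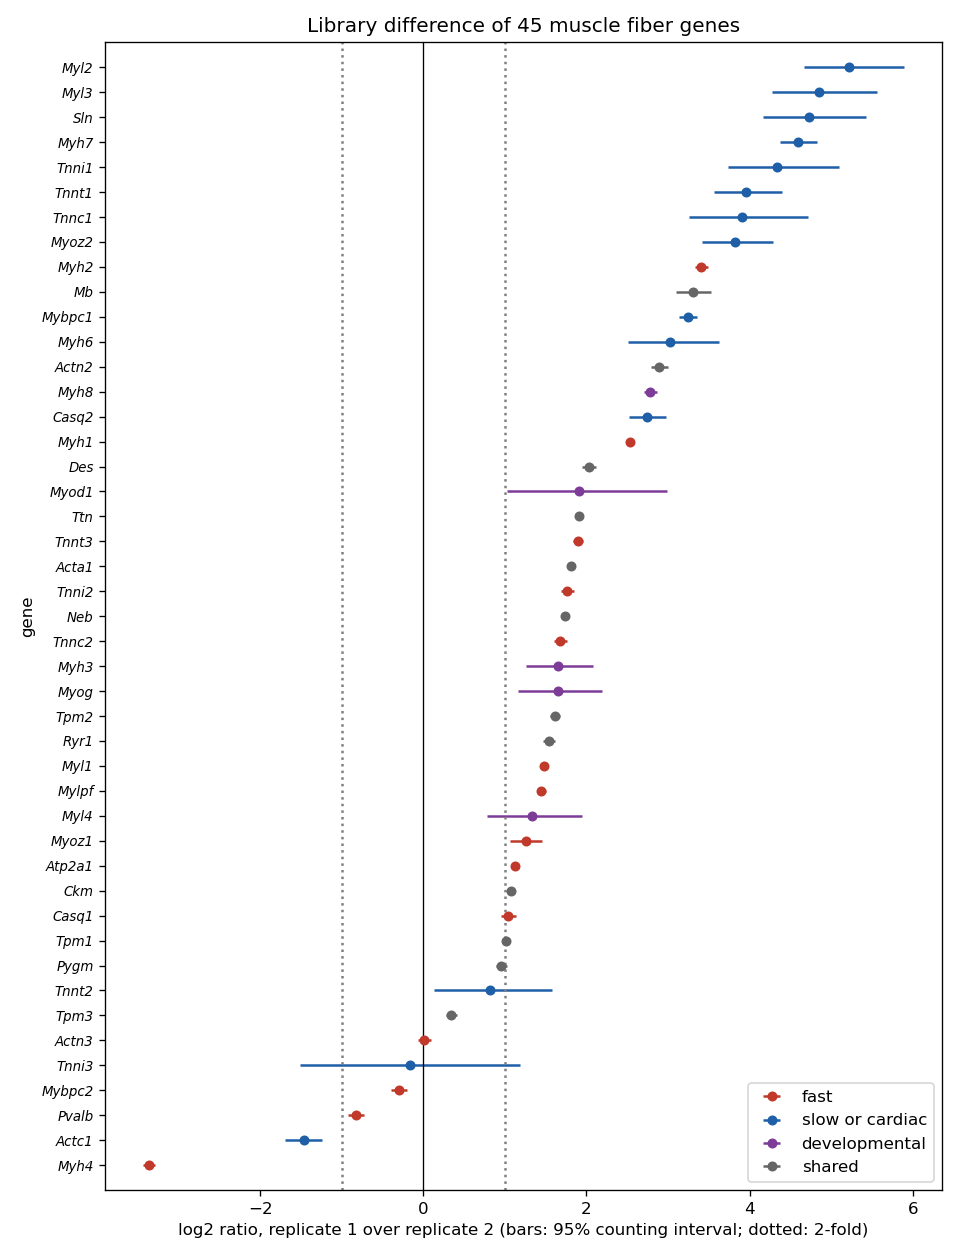
Log2 ratio of counts, replicate 1 over replicate 2, for the 45 tested genes, ordered by ratio and colored by fiber type. Bars are 95% counting intervals, and dotted lines mark the 2-fold limits. Slow or cardiac genes take the top 8 places, from Myl2 at 5.21 down to Myoz2 at 3.82, and Myh4 stands lowest at -3.36.

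Thin filament genes were led by Acta1, the skeletal muscle actin (chr8:123891769-123894751, minus strand, mm10). Acta1 stood at 1194 TPM in replicate 1 and 328 TPM in replicate 2. It ranked 10 among nuclear protein-coding genes in replicate 1 and 123 in replicate 2. It was 3.50-fold higher in replicate 1 (95% interval 3.43 to 3.56). Actc1, the cardiac actin, which is also made in developing skeletal muscle, went the other way, with 4.91 TPM in replicate 1 and 13.0 TPM in replicate 2. The fold of Actc1 was 2.77 in replicate 2 over replicate 1 (95% interval 2.37 to 3.24), from 227 counts in replicate 1 and 560 in replicate 2. Acta1 took 99.6% of the TPM of these 2 actins in replicate 1 and 96.2% in replicate 2. Their coding sequences were 86.3% identical, and no 50-base window of Acta1 occurred in Actc1.

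The tropomyosins, which cover the myosin sites on actin, did not move alike. Tpm1 stood at 304 TPM in replicate 1 and 135 TPM in replicate 2, and Tpm2 at 271.5 TPM in replicate 1 and 78.8 TPM in replicate 2. Tpm1 was 2.02-fold higher in replicate 1 (95% interval 1.95 to 2.08), just past the limit of 2-fold, and Tpm2 3.07-fold (95% interval 2.95 to 3.20). Tpm3, which is also made in many other cell types, stood at 83.0 TPM in replicate 1 and 52.2 TPM in replicate 2. Its fold of 1.27 (95% interval 1.21 to 1.33) was not called. Nebulin, the giant thin filament protein encoded by Neb, stood at 78.4 TPM in replicate 1 and 22.3 TPM in replicate 2, 3.33-fold higher in replicate 1.

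The troponin genes of fast fibers were abundant, and those of slow fibers were much lower in both libraries. Troponin C binds calcium, troponin I holds the filament off and troponin T ties the complex to tropomyosin. Tnnt3, the fast troponin T, stood at 389 TPM in replicate 1 and 102 TPM in replicate 2. Tnnc2, the fast troponin C, stood at 299.8 TPM in replicate 1 and 90.0 TPM in replicate 2. Tnni2, the fast troponin I, stood at 262 TPM in replicate 1 and 73.7 TPM in replicate 2. All 3 fast troponin genes were called higher in replicate 1, with folds of 3.71, 3.20 and 3.41 in the same order.

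The slow troponin genes were above 10 TPM in replicate 1 and below 2 TPM in replicate 2. Tnnt1, the slow troponin T, stood at 30.9 TPM in replicate 1 and 1.92 TPM in replicate 2, 15.7-fold higher in replicate 1 (95% interval 11.8 to 21.1). Tnnc1, the troponin C of slow and cardiac muscle, stood at 14.8 TPM in replicate 1 and 0.950 TPM in replicate 2, 15.4-fold higher in replicate 1 (95% interval 9.59 to 26.4). Tnni1, the slow troponin I, stood at 13.8 TPM in replicate 1 and 0.640 TPM in replicate 2, 20.7-fold higher in replicate 1 (95% interval 13.3 to 34.3), from 465 counts in replicate 1 and 20 in replicate 2. All 3 intervals lay above the folds of the fast troponin genes.

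The cardiac troponin genes were low in both libraries. Tnnt2, the cardiac troponin T, which developing skeletal muscle makes as well, stood at 1.67 TPM in replicate 1 and 0.750 TPM in replicate 2, and its fold of 1.78 was not called (exact binomial test, adjusted p = 0.0605). Tnni3, the cardiac troponin I, had 11 counts in replicate 1 and 11 in replicate 2, or 0.430 TPM in replicate 1 and 0.660 TPM in replicate 2, and was not called (exact binomial test, adjusted p = 0.930, with an interval of the fold from 0.351 to 2.27). That interval reaches past the 2-fold limit in both directions, so a difference of that size was not detectable for Tnni3 at this depth.

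The leading myosin heavy chain was not the same in the 2 libraries. The 7 heavy chain genes summed to 481 TPM in replicate 1 and 157 TPM in replicate 2. Myh1, the IIX heavy chain, stood at 275 TPM in replicate 1 and 44.1 TPM in replicate 2. Myh2, the IIA heavy chain, stood at 88.0 TPM in replicate 1 and 7.90 TPM in replicate 2. Myh4, the IIB heavy chain, stood at 9.40 TPM in replicate 1 and 92.7 TPM in replicate 2. Myh4 alone of the 7 was the higher in replicate 2. For Myh1 the fold toward replicate 1 was 5.79 (95% interval 5.65 to 5.93), and for Myh2 it was 10.6 (10.1 to 11.2). Myh4 was 10.3-fold higher in replicate 2 over replicate 1 (95% interval 9.79 to 10.8), from 1871 counts in replicate 1 and 17146 in replicate 2. In the other quantification Myh4 stood at 12.8 TPM in replicate 1 and 123 TPM in replicate 2.

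Myh7, the slow heavy chain, stood at 37.6 TPM in replicate 1 and 1.94 TPM in replicate 2, 24.1-fold higher in replicate 1 (95% interval 20.6 to 28.3). Myh6, the alpha heavy chain of the heart, stood at 7.31 TPM in replicate 1 and 0.760 TPM in replicate 2. It lies beside Myh7 on chromosome 14, its coding sequence was 91.7% identical to that of Myh7, and 23.9% of the 50-base windows of Myh7 occurred in it, so the division of reads between them is uncertain. The other quantification put Myh6 at 3.53 TPM in replicate 1 and 0.223 TPM in replicate 2. Of the first values, 6.34 TPM in replicate 1 and 0.640 TPM in replicate 2 lay on the 162-codon transcript Myh6-207, named after its values were seen. The other quantification put Myh6-207 at 0 in replicate 1 and 0.030 TPM in replicate 2. The 1938-codon Myh6-205, also named so, stood at 0.970 TPM in replicate 1 and 0.120 TPM in replicate 2. Myh8, the perinatal heavy chain, stood at 62.8 TPM in replicate 1 and 8.80 TPM in replicate 2, 6.89-fold higher in replicate 1 (95% interval 6.54 to 7.25). Myh3, the embryonic heavy chain, was low, with 1.15 TPM in replicate 1 and 0.350 TPM in replicate 2.

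Shares within the heavy chains set the total aside. Myh1 held 57.2% of the heavy chain TPM in replicate 1 and 28.2% in replicate 2. Myh4 held 1.95% in replicate 1 and 59.2% in replicate 2. As shares of the heavy chain counts, Myh4 held 2.12% in replicate 1 (Clopper-Pearson 95% interval 2.02 to 2.21) and 60.3% in replicate 2 (59.7 to 60.8). The IIX chain thus held the largest share in replicate 1 and the IIB chain in replicate 2. Myh2 held 18.3% of the TPM in replicate 1 and 5.05% in replicate 2, and Myh8 13.1% in replicate 1 and 5.62% in replicate 2. Myh7 held 7.80% in replicate 1 and 1.24% in replicate 2, and Myh6 1.52% in replicate 1 and 0.485% in replicate 2. The share of Myh3 was nearly equal, at 0.239% in replicate 1 and 0.224% in replicate 2, and its counting intervals overlapped. In the other quantification Myh1 led in replicate 1 with 71.6%, against 40.3% in replicate 2, and Myh4 held 1.44% in replicate 1 and 49.6% in replicate 2. There Myh2 held 12.75% in replicate 1 and 4.20% in replicate 2, and Myh8 9.14% in replicate 1 and 4.48% in replicate 2. Myh7 held 4.42% in replicate 1 and 1.08% in replicate 2 there.

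**Figure D3:**
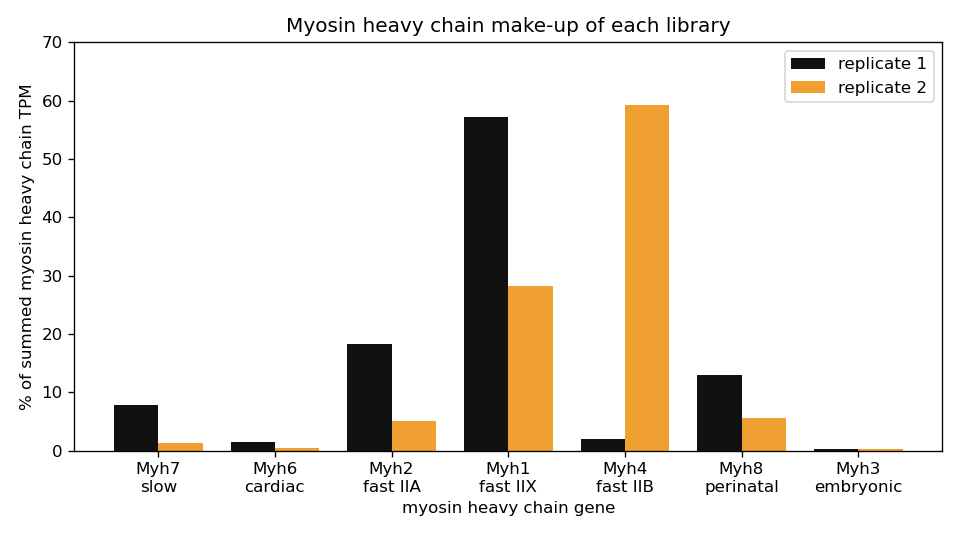
Share of the summed TPM of the 7 myosin heavy chain genes held by each gene, in percent, in replicate 1 (black) and replicate 2 (orange), without error bars since each bar is 1 library. Myh1 is the tallest bar of replicate 1 at 57.2%, and Myh4 that of replicate 2 at 59.2%, against 1.95% in replicate 1.

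The light chains, which sit on the neck of the heavy chain, followed the fast and slow split. Mylpf, the fast regulatory light chain, stood at 772 TPM in replicate 1 and 274 TPM in replicate 2. Myl1, the fast essential light chain, stood at 462 TPM in replicate 1 and 157 TPM in replicate 2. Both were called higher in replicate 1, Mylpf by 2.73-fold and Myl1 by 2.79-fold. Myl2, the slow and ventricular regulatory light chain, stood at 60.1 TPM in replicate 1 and 1.37 TPM in replicate 2, from 1019 counts in replicate 1 and 24 in replicate 2. Its fold of 37.9 (95% interval 25.3 to 59.4) was the highest of the 45 tested genes in the gene table. The other quantification put Myl2 at 168.9 TPM in replicate 1 and 6.54 TPM in replicate 2. Myl3, the slow and ventricular essential light chain, stood at 25.8 TPM in replicate 1 and 0.900 TPM in replicate 2, 29.5-fold higher in replicate 1 (95% interval 19.3 to 47.4). Myl4, a light chain of embryonic muscle and of the atrium, stood at 3.76 TPM in replicate 1 and 1.49 TPM in replicate 2, 2.55-fold higher in replicate 1. Myl7, the atrial regulatory light chain, was near the counting limit in both libraries.

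Genes of the thick filament, the Z-disc and the elastic filament were mostly higher in replicate 1. Ttn, which encodes titin, the spring that spans the sarcomere, stood at 122 TPM in replicate 1 and 31.6 TPM in replicate 2, and its 182457 counts in replicate 1 and 43509 in replicate 2 were the most of any gene listed. Ttn was 3.74-fold higher in replicate 1 (95% interval 3.70 to 3.78). Mybpc1, the slow myosin-binding protein C, stood at 83.6 TPM in replicate 1 and 9.15 TPM in replicate 2, 9.45-fold higher in replicate 1. Mybpc2, its fast counterpart, stood at 13.5 TPM in replicate 1 and 15.9 TPM in replicate 2, and its fold of 0.816 (95% interval 0.762 to 0.873) was not called. Actn2, the alpha-actinin of all striated Z-discs, stood at 79.3 TPM in replicate 1 and 11.9 TPM in replicate 2, 7.44-fold higher in replicate 1. Actn3, the alpha-actinin of fast fibers, stood at 31.8 TPM in replicate 1 and 30.4 TPM in replicate 2, and its fold was 1.01 (95% interval 0.954 to 1.07). The interval of Actn3 leaves out a difference of the size found for Actn2.

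The Z-disc proteins myozenin also split by type. Myoz1 of fast fibers stood at 20.4 TPM in replicate 1 and 9.60 TPM in replicate 2, and Myoz2 of slow fibers and the heart at 21.8 TPM in replicate 1 and 1.65 TPM in replicate 2. Myoz1 was 2.39-fold higher in replicate 1 and Myoz2 14.3-fold. Des, which encodes the intermediate filament desmin around the Z-discs, stood at 68.8 TPM in replicate 1 and 18.5 TPM in replicate 2, 4.09-fold higher in replicate 1.

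Among the calcium handling genes, those of slow fibers again had the higher folds. Atp2a1, the calcium pump of fast fibers, stood at 191 TPM in replicate 1 and 78.2 TPM in replicate 2, 2.19-fold higher in replicate 1. Casq1, the fast calsequestrin that stores calcium, stood at 62.3 TPM in replicate 1 and 29.3 TPM in replicate 2, 2.06-fold higher in replicate 1 with an interval from 1.94 to 2.19 that includes 2. Casq2, the calsequestrin of slow and cardiac muscle, stood at 16.5 TPM in replicate 1 and 2.40 TPM in replicate 2, 6.68-fold higher in replicate 1. Sln, which encodes sarcolipin, an inhibitor of the pump, stood at 17.0 TPM in replicate 1 and 0.600 TPM in replicate 2, 27.1-fold higher in replicate 1. Ryr1, the calcium release channel, stood at 14.8 TPM in replicate 1 and 4.84 TPM in replicate 2, 2.91-fold higher in replicate 1. Pvalb, the calcium buffer parvalbumin of the fastest fibers, stood at 46.7 TPM in replicate 1 and 79.6 TPM in replicate 2. Pvalb had a fold of 0.563 (95% interval 0.525 to 0.603), beyond counting error but inside the 2-fold limit, so it was not called. Pvalb, Myh4 and Mybpc2 were the fast genes whose level was lower in replicate 1. The kidney list was also lower there, with 0.98 TPM in replicate 1 and 230.6 TPM in replicate 2. Its part in the level of Pvalb was not tested.

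Energy genes of the fiber were higher in replicate 1 by unequal amounts. Mb, the oxygen carrier myoglobin of slow and oxidative fibers, stood at 77.0 TPM in replicate 1 and 7.17 TPM in replicate 2, 9.87-fold higher in replicate 1 (95% interval 8.52 to 11.5). Ckm, the muscle creatine kinase, stood at 321 TPM in replicate 1 and 146 TPM in replicate 2, 2.11-fold higher in replicate 1. Pygm, the muscle glycogen phosphorylase, stood at 73.5 TPM in replicate 1 and 34.6 TPM in replicate 2, and its fold of 1.94 (95% interval 1.85 to 2.03) missed the 2-fold limit. With total counts in place of TMM, its log2 ratio was 1.03 and it was called.

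The 2 muscle transcription factors listed were low. Myog, myogenin, stood at 3.17 TPM in replicate 1 and 0.960 TPM in replicate 2, and Myod1 at 0.880 TPM in replicate 1 and 0.220 TPM in replicate 2. Myog was 3.16-fold higher in replicate 1 (95% interval 2.23 to 4.57). Myod1 was 3.87-fold higher in replicate 1 (95% interval 2.04 to 7.95), from 52 counts in replicate 1 and 12 in replicate 2. Neither Myod1 library value reached 1 TPM.

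Ratios of partner genes within a library set aside the total level of these genes in it. For 10 pairs of genes that encode the same kind of protein, the log2 ratio of TPM was taken in each library, with 0.01 TPM added. The first gene of each pair is a fast gene, or Acta1 for actin, and the second is slow or cardiac, or for alpha-actinin the shared Actn2. In 9 pairs the ratio was lower in replicate 1 than in replicate 2, and the 1 exception was Acta1 over Actc1. Mylpf exceeded Myl2 by 12.9-fold in replicate 1 and 199-fold in replicate 2, and Myl1 exceeded Myl3 by 17.9-fold in replicate 1 and 173-fold in replicate 2. Tnnc2 exceeded Tnnc1 by 20.2-fold in replicate 1 and 93.8-fold in replicate 2, Tnni2 exceeded Tnni1 by 19.0-fold in replicate 1 and 113-fold in replicate 2, and Tnnt3 exceeded Tnnt1 by 12.6-fold in replicate 1 and 52.7-fold in replicate 2. Fast copies led in both libraries for these 5 pairs and for Casq1 over Casq2, at 3.78-fold in replicate 1 and 12.2-fold in replicate 2. The slow genes of these pairs were low in replicate 2. Myl2 stood there at 1.37 TPM from 24 counts and Tnni1 at 0.640 TPM from 20 counts. The other quantification put Myl2 at 6.54 TPM beside Mylpf at 579 TPM there, and Tnni1 at 2.03 TPM beside Tnni2 at 130 TPM. The replicate 2 folds of these pairs are thus less certain than those of replicate 1.

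In 3 pairs the leading gene changed. The log2 ratio of Mybpc2 over Mybpc1 was -2.63 in replicate 1 and 0.79 in replicate 2. That of Actn3 over Actn2 was -1.32 in replicate 1 and 1.35 in replicate 2. That of Myoz1 over Myoz2 was -0.096 in replicate 1, near equal levels, and 2.53 in replicate 2. For these 3 pairs the mean over the libraries has no common direction behind it. Acta1 over Actc1 had a log2 ratio of 7.92 in replicate 1 and 4.65 in replicate 2. The pair differences were not tested, since each is 1 library against 1 library.

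**Figure D4:**
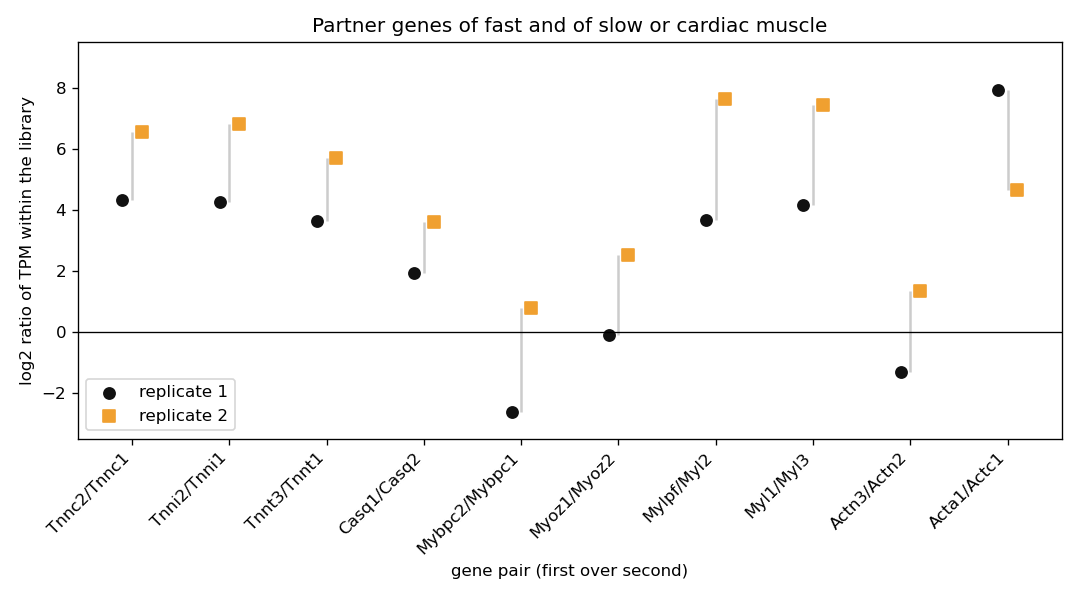
Log2 ratio of TPM between the 2 genes of each of 10 pairs, first gene over second, in replicate 1 (black circles) and replicate 2 (orange squares), with a line at equal levels. Replicate 1 lies below replicate 2 in 9 pairs and above it for Acta1 over Actc1, and 3 pairs cross the line, with Mybpc2 over Mybpc1 at -2.63 in replicate 1 and 0.79 in replicate 2.

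Transcript levels were read for 11 of the genes, most of which make fiber-specific forms. The deposited tables give each transcript's percent of its gene's TPM. Striated muscle makes long tropomyosins, and many other cells make shorter ones from an internal start. The 284-codon transcript Tpm3-205 stood at 21.2 TPM in replicate 1 and 1.42 TPM in replicate 2, or 25.5% of the gene in replicate 1 and 2.72% in replicate 2. The 248-codon transcript Tpm3-201 stood at 36.0 TPM in replicate 1 and 38.3 TPM in replicate 2, or 43.4% in replicate 1 and 73.4% in replicate 2. The long form thus differed between the libraries while the short form was nearly level, and the other quantification gave 32.8 TPM in replicate 1 and 2.93 TPM in replicate 2 for Tpm3-205 and 62.8 TPM in replicate 1 and 58.7 TPM in replicate 2 for Tpm3-201.

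Tpm1 was led by a long form in both libraries. The 284-codon Tpm1-205 stood at 244 TPM in replicate 1 and 85.5 TPM in replicate 2, or 80.4% of the gene in replicate 1 and 63.4% in replicate 2. The 248-codon Tpm1-211 stood at 15.3 TPM in replicate 1 and 19.8 TPM in replicate 2, but the other quantification listed it at 0 in both, so its level is uncertain. Of Tpm2, the 284-codon transcripts Tpm2-202 and Tpm2-203 held 38.1% and 25.1% in replicate 1, and 35.5% and 41.3% in replicate 2.

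**Figure D5:**
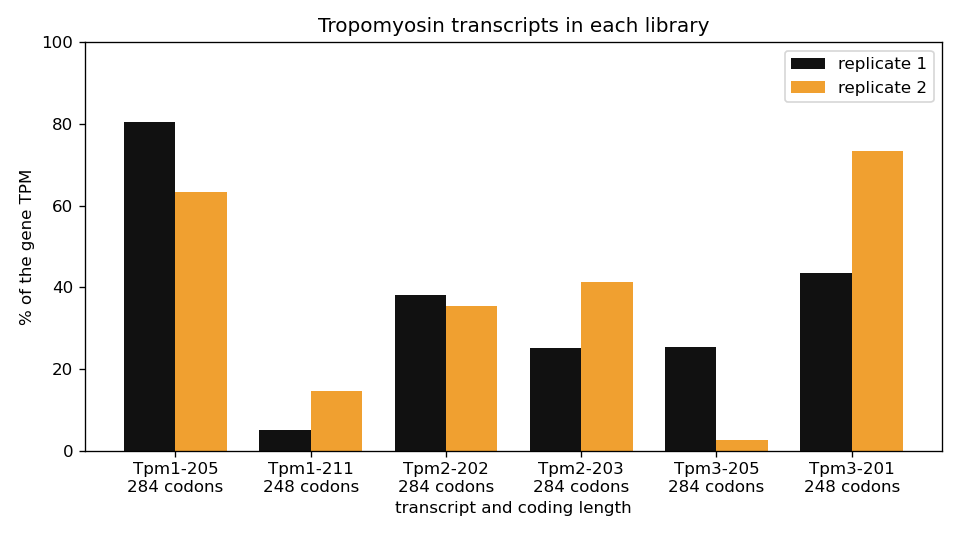
Percent of the gene's TPM held by the 2 highest transcripts of each tropomyosin gene, in replicate 1 (black) and replicate 2 (orange), with coding length in codons under each name and no error bars since each bar is 1 library. The 284-codon Tpm3-205 holds 25.5% in replicate 1 and 2.72% in replicate 2, and the 248-codon Tpm3-201 holds 43.4% in replicate 1 and 73.4% in replicate 2.

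The light chain gene Myl1 makes a long and a short form from separate starts. Its 150-codon transcript Myl1-202 held 64.4% in replicate 1 and 61.6% in replicate 2, and its 188-codon transcript Myl1-201 held 32.3% in replicate 1 and 34.7% in replicate 2. The other quantification was led by a different Myl1 transcript in both libraries. Myl4 was led in both quantifications by Myl4-204, annotated as a retained intron, at 1.61 TPM in replicate 1 and 0.920 TPM in replicate 2. The 193-codon Myl4-203 stood at 1.35 TPM in replicate 1 and 0.420 TPM in replicate 2. The pump gene Atp2a1 was led by the 994-codon Atp2a1-201, with 82.0% in replicate 1 and 89.6% in replicate 2. The 145-codon Atp2a1-202 held 18.0% in replicate 1 and 10.4% in replicate 2. For Tnnt3, the leading transcripts of the first quantification, Tnnt3-216 and Tnnt3-211, were listed at 0 in the other, which put 427 TPM in replicate 1 and 92.2 TPM in replicate 2 on Tnnt3-202, a transcript named after its values were seen. Over the 11 genes, the same transcript led in both libraries for 8 genes in the first quantification and 10 in the other. The quantifications named the same leading transcript for 5 genes in replicate 1 and 7 in replicate 2, so transcript shares are less certain than gene levels.

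The leading transcript differed between the libraries for Tnnt1, Tnnt3 and Tpm2 in the first quantification. For Tnnt1, Tnnt1-203 stood at 11.7 TPM in replicate 1 and 0.330 TPM in replicate 2, and Tnnt1-201 at 7.03 TPM in replicate 1 and 1.17 TPM in replicate 2. Tnnt1-201 was listed at 0 in the other quantification, which put Tnnt1-206 first in both libraries. For Tnnt3, Tnnt3-216 stood at 129.9 TPM in replicate 1 and 12.3 TPM in replicate 2, and Tnnt3-211 at 77.8 TPM in replicate 1 and 27.1 TPM in replicate 2. Titin was led by the 645-codon Ttn-215, at 34.0 TPM in replicate 1 and 7.53 TPM in replicate 2, ahead of the 33467-codon Ttn-205, at 28.9 TPM in replicate 1 and 6.78 TPM in replicate 2. In the other quantification the long Ttn-205 led in both libraries, with 38.4 TPM in replicate 1 and 9.48 TPM in replicate 2. Nebulin was led by the 7152-codon Neb-202 in both quantifications, at 18.0 TPM in replicate 1 and 5.03 TPM in replicate 2. Next came Neb-204, without a coding length, at 17.0 TPM in replicate 1 and 4.84 TPM in replicate 2. The other quantification put Neb-204 at 0.489 TPM in replicate 1 and 3.59 TPM in replicate 2. Tnnt2-207 stood at 1.12 TPM in replicate 1 and 0.710 TPM in replicate 2, and Tnnt2-214 at 0.310 TPM in replicate 1 and 0 in replicate 2. The other quantification listed Tnnt2-207 at 0 in replicate 1.

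Further genes of the sarcomere and of the triad, where calcium release is triggered, moved with those above. Of 35 such genes, 29 were called higher in replicate 1, none higher in replicate 2, and 6 were not called, with a median log2 ratio of 1.67. Over all tested genes, 4.05% were called higher in replicate 1 and 2.75% in replicate 2. The 35 genes summed to 606 TPM in replicate 1 and 211 TPM in replicate 2. The highest were Eno3, the muscle enolase, at 74.0 TPM in replicate 1 and 36.2 TPM in replicate 2, Fhl1 at 69.9 TPM in replicate 1 and 30.8 TPM in replicate 2, and Pfkm, the muscle phosphofructokinase, at 55.6 TPM in replicate 1 and 29.4 TPM in replicate 2. Fhl1 was called with a log2 ratio of 1.10, and Eno3 and Pfkm were not, with 0.98 and 0.92. Mybph, named after its values were seen, was the 1 gene of the 35 with a negative log2 ratio, at -0.81, with 1.64 TPM in replicate 1 and 2.76 TPM in replicate 2.

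Since slow fibers and heart share Myh7, Myl2, Myl3 and Tnnc1, markers of heart muscle were read beside them. The 4 heart markers given first lie outside the rule for named genes and were chosen after their values were seen. The natriuretic peptide gene Nppa had 0 counts in replicate 1 and 2 in replicate 2, and Nppb had 1 in replicate 1 and 1 in replicate 2. The cardiac factor gene Nkx2-5 had 1 count in replicate 1 and 0 in replicate 2, and Mybpc3, the cardiac myosin-binding protein C, had 4 in replicate 1 and 4 in replicate 2. These values, like those of Myl7, lay at or near the counting limit in both libraries, while Tnni3 was low with 11 counts in each. The 3 highest genes of the 10 in the cardiomyocyte list were Tbx20 at 5.87 TPM in replicate 1 and 5.39 TPM in replicate 2, Ryr2 at 4.45 TPM in replicate 1 and 3.61 TPM in replicate 2, and Myzap at 4.46 TPM in replicate 1 and 3.34 TPM in replicate 2, none of them called. The list summed to 21.9 TPM in replicate 1 and 15.3 TPM in replicate 2. Its 1 called gene of 6 tested was Smyd1, named after its values were seen, which skeletal muscle makes too, at 5.92 TPM in replicate 1 and 1.43 TPM in replicate 2.

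Smooth muscle genes did not move with the striated ones. None of the 10 was called by the exact binomial test, and they summed to 112 TPM in replicate 1 and 116 TPM in replicate 2. The highest were Smtn at 26.8 TPM in replicate 1 and 24.5 TPM in replicate 2, Myl9 at 22.4 TPM in replicate 1 and 25.6 TPM in replicate 2, and the actin Acta2 at 23.0 TPM in replicate 1 and 24.1 TPM in replicate 2. None of the 8 brown fat genes was called, and they summed to 2961 TPM in replicate 1 and 3538 TPM in replicate 2.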

How the data were processed

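Build mm10 and annotation M21 were used, per the file headers and notes. The aligner, the quantifiers, their versions, the strand setting of counting and any handling of CAST/EiJ variants are all not given in the sources used here. Per gene and per transcript, the authors deposited expected counts, TPM and a credibility interval of TPM (a signal range). Per transcript, the authors also deposited its percent of the gene's TPM. A second quantification that the authors deposited gives estimated counts and TPM of transcripts, which were summed per gene here. TPM is per length and was used for all levels.

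The annotation gave symbols and coordinates for all 55536 gene IDs. Left out of library sizes and tests were ERCC and phiX sequences, at 0.979% of counts in replicate 1 and 0.929% in replicate 2, and features whose ID is only a number, at 1.96e-05% in replicate 1 and 1.80e-05% in replicate 2. Depth was 35287805 expected counts in replicate 1 and 33068267 in replicate 2.

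After rounding, TMM factors came from edgeR 4.0.16 in R 4.3.3. With 1 group there is no contrast for a test over animals. The 2 libraries were therefore compared per gene by an exact binomial test, two-sided, adjusted by Benjamini-Hochberg over all genes with 20 or more counts in sum. The prior count of log2 ratios was 0.5. Intervals are Clopper-Pearson at 95%. They and the limit of 3 counts cover only counting error, as no molecular identifiers were named. Python 3.11.15, numpy 2.4.6, pandas 2.3.3, scipy 1.17.1 and biopython 1.88 were used, and MAFFT 7.526 aligned the heavy chain coding sequences. DESeq2 1.42.0 gave alternative size factors.

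The rule for named genes takes all 46 listed genes, the 3 highest in mean TPM of each other list, and the 2 transcripts highest in mean TPM of each of 11 genes. Cortex, chromaffin, liver, kidney and brown fat lists are given as list values only. The genes and lists were chosen with earlier results of these data known. Myh6 and Myh7, and the heavy chain genes of chromosome 11, share sequence, and overlapping or antisense genes are uncertain.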

Additional observations from a re-analysis of the deposited data

How the results depend on the processing

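Alternatives were total counts or DESeq2 size factors in place of TMM, no filter beyond a summed count of 1, the other quantification, a limit of 1.5-fold, 1 TPM added before taking logs, a detection limit of 0.1 TPM, and, chosen after seeing the data, scaling to the median of the cortex and chromaffin genes. Over these, the genes called higher in replicate 1 numbered 36 to 37, those higher in replicate 2 numbered 2 to 3, and all called genes 1268 to 1828, against 36, 2 and 1284. The fast median was 1.42 with total counts, against 1.35, and the shared median 1.75 with total counts and 1.73 with cortex and chromaffin scaling, against 1.68; the scaling shifts every ratio by the same amount. The mean heavy chain share in the other quantification was 0.244% for Myh6, against 1.00%, and 0.219% for Myh3, against 0.231%; the cause was not tested. The mean log2 ratio of Actn3 over Actn2, 0.014, was -0.0070 with 1 TPM added and -0.035 in the other quantification. Left with 1 library, it ran from -1.32 to 1.35, Mybpc2 over Mybpc1 from -2.63 to 0.79 (mean -0.92) and Myoz1 over Myoz2 from -0.096 to 2.53 (mean 1.22). The range was 1.95% to 59.2% for the share of Myh4, 28.2% to 57.2% for Myh1, and 35 to 43 for the genes detected. Single-gene ratios were compared under the alternatives of scaling, filter and quantification, at the 2-fold limit only. Of 224 such ratios, 222 kept their call and direction. The other 2 were those of Pygm, which was called with total counts and with cortex and chromaffin scaling. In the other quantification 14 of 22 transcript shares moved by more than the spread between the libraries. Leaving out a library leaves no difference between libraries to test. No paired analysis was possible because the series holds 1 group. Low counts limit Tnni3, Tnnt2, Myl7 and Myod1 most.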

Other observations

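Genes of the neuromuscular junction, where nerve meets fiber, were low, with 4 of 9 at 1 TPM or more in replicate 1 and 2 of 9 in both libraries. Of the 9 genes, 8 had enough counts to be compared. Of these, 6 were called higher in replicate 1 and none in replicate 2 (exact binomial test), against 4.05% and 2.75% of all tested genes. The 8 genes had a median log2 ratio of 1.58, and the list summed to 11.98 TPM in replicate 1 against 5.99 TPM in replicate 2. Dok7, an activator of the receptor kinase MuSK, stood at 3.99 TPM in replicate 1 and 2.48 TPM in replicate 2, and Chrnb1, the beta subunit of the muscle acetylcholine receptor, at 2.60 TPM in replicate 1 and 1.65 TPM in replicate 2. Neither was called. Rapsn, which clusters the receptor, stood at 1.66 TPM in replicate 1 and 0.770 TPM in replicate 2 and was called with a log2 ratio of 1.13. Of the subunits that exchange as the junction matures, named after their values were seen, the adult subunit gene Chrne had 22 counts in replicate 1 and 1 in replicate 2, and the fetal subunit gene Chrng 9 counts in replicate 1 and 2 in replicate 2.

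Genes of muscle stem cells and fusing myoblasts were low. Of 8 genes, 6 were compared and 5 were called higher in replicate 1, against 4.05% of all tested genes. The median log2 ratio was 1.74, and none of the 8 reached 1 TPM in both libraries. Myf6, a muscle transcription factor of mature fibers, stood at 2.96 TPM in replicate 1 and 0.800 TPM in replicate 2, with a log2 ratio of 1.82. It is 1 of the 5 called genes, so the list does not stand for stem cells and myoblasts alone. The fusion genes Mymk and Mymx had few counts. Mymk stood at 0.880 TPM in replicate 1 and 0.270 TPM in replicate 2, from 37 and 10 counts. Mymx stood at 0.620 TPM in replicate 1 and 1.52 TPM in replicate 2, from 14 and 26 counts. Mymx was not called (exact binomial test, adjusted p = 0.087), so its direction is uncertain. In the same libraries the liver list stood at 5899 TPM in replicate 1 and 1135 TPM in replicate 2, and its part in these values was not tested.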
